A study of Mus musculus with 16 samples.

Results

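Endothelial cells line every blood vessel of the gut wall, and their transcripts make up a small part of the RNA of a dissected muscle layer. Here 10 genes that mark these cells were followed: Pecam1, Cdh5, Kdr, Tek, Tie1, Vwf, Eng, Emcn, Esam and Cd34. Members were every probe that the platform annotation gives to these genes, which came to 11 of the 25697 probes on the array, 2 of them for Pecam1. RNA came from the proximal colon smooth muscle of wild type C57Bl/6 mice and was hybridized to 16 arrays, 4 in each of 4 groups. C/+Lop mice were germ-free mice that received by gavage the cecal contents of donors that had drunk 0.1% loperamide, an opioid that slows intestinal transit, for 7 days at the age of 8 to 10 weeks. C/-Lop mice were germ-free mice that received the cecal contents of control donors, and the labels put the sampling of recipients at 4 weeks after colonization. SPF mice were specific pathogen free animals with a microbiota of their own, and GF mice were germ free and not colonized. The sources used here do not say whether each array held the RNA of its own animal, so p-values measure the spread between arrays, which may be technical. One SPF array carries the replicate number 13 in its label and keeps that number here.

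Endothelial identity rests on junction proteins, on receptors for vascular growth factors and on stored or surface glycoproteins. VEGF receptors such as KDR and the angiopoietin receptor TEK, with its partner TIE1, carry signals for growth and quiescence. Endoglin is a co-receptor for ligands of the TGF-beta family, and PECAM1, VE-cadherin (Cdh5) and ESAM hold neighbouring cells together. VWF is stored by endothelial cells and binds platelets, while endomucin and CD34 are sialomucins of the endothelial surface. In the muscle layer these cells lie in capillaries among smooth muscle, interstitial and neural cells.

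All 11 probes passed the filter on dim probes, which asked for a signal above the negative controls (detection p under 0.05) on at least 4 of the 16 arrays and kept 14102 probes. Of the 11, 8 were above background on all 16 arrays, Tie1 on 14, Cdh5 on 7 and Kdr on 4. Cdh5 was above background on 1 C/+Lop, 0 C/-Lop, 4 SPF and 2 GF arrays, so it passed the filter only through its SPF arrays. Its calls below all have SPF as the higher group, so they are not free of that choice. Kdr was above background on 1 C/+Lop, 1 C/-Lop, 2 SPF and 0 GF arrays, so its levels lie close to the detection limit throughout. Each member value was a mean over 23 to 62 beads, and the median bead standard error was between 2.41% and 3.72% of the intensity for the 11 probes. The within-group SD of the member probes ran from 0.16 for Kdr to 0.36 for Vwf on the log2 scale, beside a median of 0.20 over all kept probes.

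Some arrays stood apart before any comparison was made. Of the 4 SPF arrays, replicates 2 and 4 had the highest means over 11 smooth muscle genes (11.72 and 11.66 log2 units, against 10.98 and 10.95 on SPF replicates 1 and 13) and the lowest means over 8 colonic epithelial genes (11.17 and 11.30, against 11.61 and 11.70). GF replicate 2 had the lowest smooth muscle mean of the GF arrays (10.26, with the others between 10.53 and 11.08) and the highest epithelial mean (11.97, with the others between 11.66 and 11.76). All 11 listed smooth muscle genes passed the filter, and so did 8 of 12 listed epithelial genes, whose mean lay between 11.17 and 11.97 on every array, so the tissue labelled smooth muscle also held epithelial RNA. Values from these arrays are given with and without them below. In bulk RNA such as this, fewer endothelial cells and less RNA per cell cannot be told apart.

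**Figure D1:**
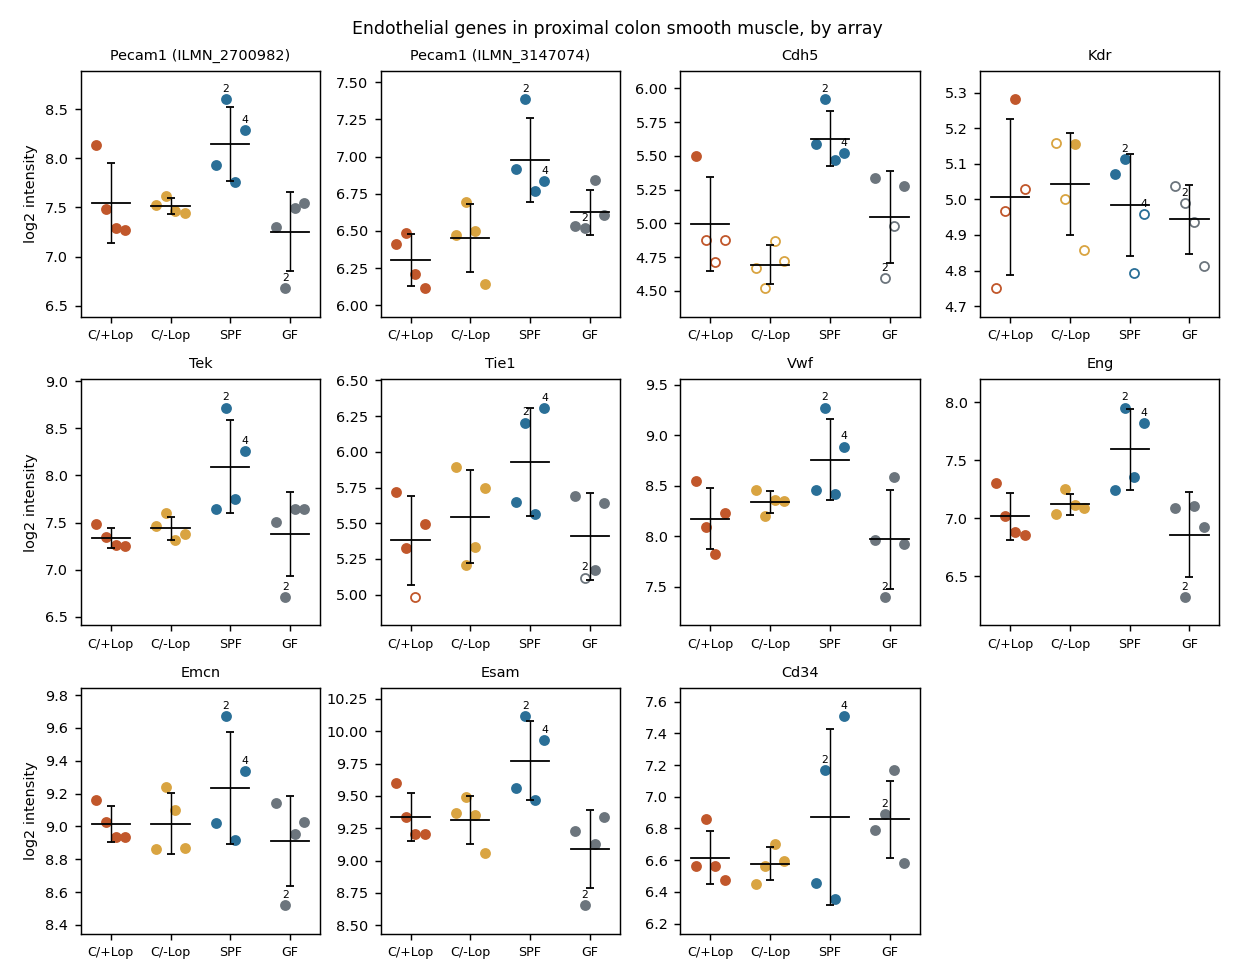
Normalized log2 intensity of the 11 endothelial probes on each array, by group. Points are arrays (filled where the probe was above background, open where it was not), lines are group means with SD over 4 arrays, and the numbers mark SPF replicates 2 and 4 and GF replicate 2. SPF replicate 2 was the highest of all 16 arrays for 8 of the 11 probes, while Kdr varied within 4.75 to 5.28 on all arrays.

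The first question was whether mice with a conventional microbiota differed from germ-free mice. In SPF muscle 6 of the 11 endothelial probes were higher than in GF muscle and none was lower (limma with Benjamini-Hochberg adjustment over all kept probes), where 19.9% of all kept probes passed the same test and 9.91% passed it as higher in SPF. The 6 were the first Pecam1 probe, Cdh5, Tek, Vwf, Eng and Esam, with fold differences between 1.49 and 1.86. The lowest of these folds was that of Cdh5, which had passed the filter only through its SPF arrays, so its place in this count is not free of that choice. The median log2 fold change of the 11 probes was 0.58, beside -0.01 over all kept probes. For 5 probes, Cdh5 among them, every SPF array was above every GF array, a pattern that 8.47% of all kept probes showed.

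Among the junction genes, Pecam1, an adhesion molecule that also senses flow, was read by a pair of probes annotated to different RefSeq transcripts. In the order of replicates 1, 2, 13 and 4, its probe ILMN_2700982 had log2 intensities of 7.94, 8.60, 7.76 and 8.29 on the SPF arrays, against 7.30, 6.68, 7.49 and 7.54 on GF arrays 1 to 4. Every SPF array was above every GF array, and the log2 fold change was 0.89 (SE 0.22, adjusted p = 0.0127, limma). Before normalization the same probe read 386.7 to 683.7 intensity units on SPF arrays and 193.4 to 299.7 on GF arrays. The SPF arrays were also brighter as a whole, with array medians of 144.1 to 167.6, against 124.1 to 141.7 on the GF arrays. The probe ILMN_3147074 read 6.91, 7.39, 6.77 and 6.84 on the SPF arrays, against 6.53, 6.52, 6.84 and 6.61 on the GF arrays. These groups overlapped at GF replicate 3, and the difference of 0.35 (SE 0.15) did not pass the test (adjusted p = 0.0997, limma). Over the 16 arrays the 2 Pecam1 probes had a Pearson correlation of 0.66, and they disagreed on the call in this comparison.

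Cdh5 encodes VE-cadherin, the adherens junction protein particular to endothelium. It read 5.59, 5.92, 5.47 and 5.52 on the SPF arrays, against 5.34, 4.60, 4.98 and 5.28 on the GF arrays, where GF replicates 2 and 3 were not above background. No SPF array overlapped a GF array, and the difference was 0.58 (SE 0.18, adjusted p = 0.0347, limma). Esam, an immunoglobulin family protein of endothelial tight junctions, read 9.56, 10.12, 9.47 and 9.93 on the SPF arrays, against 9.23, 8.65, 9.13 and 9.34 on the GF arrays. The groups again did not overlap, and the difference of 0.68 (SE 0.17) had the smallest adjusted p of the members (0.012, limma).

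Of the growth factor receptors, Tek, the receptor of the angiopoietins, read 7.65, 8.72, 7.75 and 8.26 on the SPF arrays, against 7.51, 6.71, 7.64 and 7.65 on the GF arrays. SPF replicate 1 and GF replicate 4 differed by little, yet the groups did not overlap, and the difference was 0.72 (SE 0.22, adjusted p = 0.0338, limma). Its partner Tie1 read 5.65, 6.20, 5.56 and 6.31 on the SPF arrays, against 5.69, 5.12, 5.18 and 5.64 on the GF arrays. The Tie1 groups overlapped, and the difference of 0.52 (SE 0.21) did not pass the test (adjusted p = 0.0946, limma). Kdr, the main signalling receptor of VEGF-A, averaged 4.98 ± 0.14 on the SPF arrays and 4.94 ± 0.10 on the GF arrays (SD, n = 4 each). With no GF array above background, no fold is given for Kdr (adjusted p = 0.841, limma), and a difference was not detectable at these signals. Eng, the co-receptor endoglin, read 7.24, 7.96, 7.36 and 7.82 on the SPF arrays, against 7.09, 6.32, 7.11 and 6.92 on the GF arrays. The Eng groups did not overlap, and the difference was 0.73 (SE 0.18, adjusted p = 0.0127, limma).

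Of the stored and surface glycoproteins, Vwf read 8.45, 9.28, 8.42 and 8.89 on the SPF arrays, against 7.96, 7.40, 8.59 and 7.92 on the GF arrays. GF replicate 3 was above SPF replicates 1 and 13, and the difference of 0.79 (SE 0.23) passed the test (adjusted p = 0.0251, limma). Emcn read 9.02, 9.67, 8.92 and 9.34 on the SPF arrays, against 9.14, 8.52, 8.96 and 9.03 on the GF arrays, with a difference of 0.33 (95% interval -0.02 to 0.67, adjusted p = 0.166, limma). Cd34, which fibroblast-like and blood progenitor cells also carry, read 6.46, 7.17, 6.35 and 7.51 on the SPF arrays, against 6.79, 6.89, 7.17 and 6.58 on the GF arrays. Its SPF arrays fell on both sides of the GF arrays, with the lowest and the highest values of the 8 both in SPF, and its mean difference was 0.01 (95% interval -0.43 to 0.45, adjusted p = 0.972, limma).

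**Figure D2:**
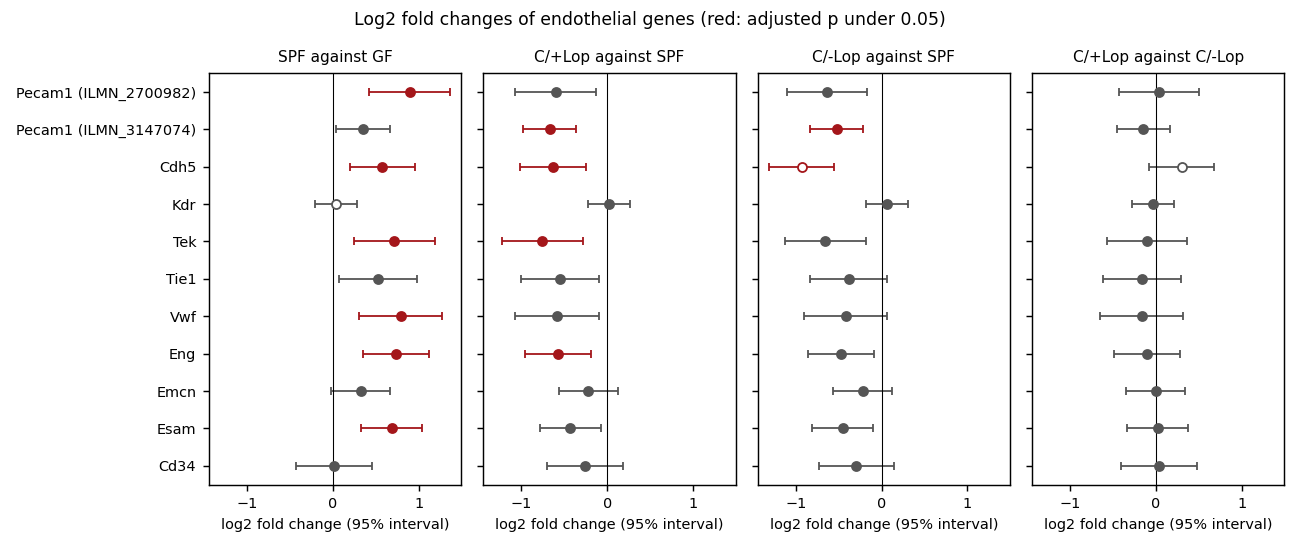
Log2 fold change of each endothelial probe (x axis, with its 95% interval from limma) in 4 comparisons, the group named first over the group named second. Red marks an adjusted p under 0.05 and open symbols a probe that was not above background on any array of 1 of the groups. In SPF against GF 6 probes are red to the right of 0, in the comparisons with SPF as the second group 4 and 2 are red to the left, and in C/+Lop against C/-Lop none is red.

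Gene lists of other cell types also differed between the SPF and GF arrays. The mean of the 10 genes (the probe with the highest mean standing for Pecam1) was 7.26, 7.87, 7.19 and 7.68 on SPF replicates 1, 2, 13 and 4, against 7.11, 6.59, 7.12 and 7.07 on the GF arrays, so that SPF replicates 2 and 4 were the highest and GF replicate 2 the lowest of all 16. The smooth muscle list ran from 10.95 to 11.72 in SPF and from 10.26 to 11.08 in GF, with 8 of 11 genes higher in SPF. The fibroblast and matrix list ran from 9.05 to 9.80 in SPF and from 8.11 to 8.90 in GF, with 5 of 9 measured genes higher. The epithelial list ran from 11.17 to 11.70 in SPF and from 11.66 to 11.97 in GF, with 4 of 8 measured genes lower in SPF. These counts stand beside 9.91% of all kept probes called as higher in SPF and 19.9% called in either direction. With the epithelial mean as a covariate the median fold change of the 11 probes was 0.11, with 0 calls and 0 probes at an unadjusted p under 0.05 (limma), a level that 34.8% of all kept probes and 8 of the 11 passed without the covariate. Calls over all kept probes fell as well, from 2813 without the covariate to 150 with it, so the loss was not particular to the members. Without SPF replicates 2 and 4 the median was 0.38 over the 10 probes still tested, and without GF replicate 2 as well it was 0.22, with 0 calls in both fits and 5 and 1 probes at an unadjusted p under 0.05 (limma). Over all probes tested, these fits called 698 and 538. The arrays left out held the highest SPF and the lowest GF endothelial means, so leaving them out was bound to narrow the gap between the groups. The epithelial list itself differed between SPF and GF, so the covariate fit cannot separate tissue makeup from group. The part of tissue makeup in the SPF difference was not tested.

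**Figure D3:**
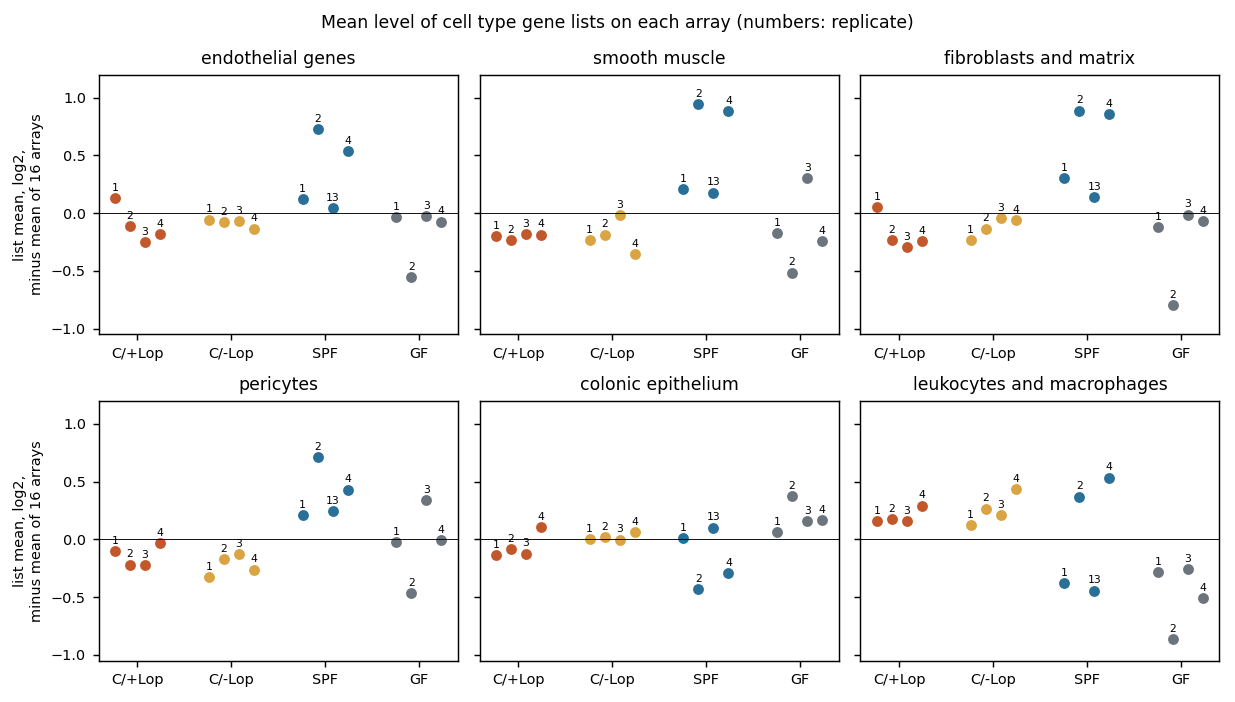
Mean log2 level of 6 gene lists on each array, with the mean over the 16 arrays subtracted (y axis, log2 units), by group; the numbers are replicates. The endothelial, smooth muscle, fibroblast and matrix, and pericyte lists were highest on SPF replicate 2 and lowest on GF replicate 2, and the epithelial list was lowest on SPF replicate 2 and highest on GF replicate 2.

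The count of calls in SPF against GF also depended on single arrays. Leaving out 1 array at a time gave 3 to 7 called probes. The calls of Pecam1 (ILMN_2700982), Eng and Esam held in all 16 such fits, while that of Tek ended without GF replicate 2, SPF replicate 2 or SPF replicate 4. The call of Cdh5 ended without any 1 of GF replicates 2 and 3 and SPF replicates 1, 2 and 4, and that of Vwf without any 1 of GF replicates 1, 2 and 4 and SPF replicates 2 and 4. Fitted on the SPF and GF arrays alone, limma called 0 of the 11 and 8 had an unadjusted p under 0.05.

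Promoters are shown for a pair of called receptors, Tek and Eng, and for a pair of members without a call, Kdr and Cd34, since endothelial genes are commonly driven by ETS family factors, which bind a core of GGAA. Each line gives the 150 bases before a transcription start listed for the gene (GRCm38.p6), 5′ to 3′ on the gene's strand. GGAA or its reverse complement TTCC is in capitals.
Tek: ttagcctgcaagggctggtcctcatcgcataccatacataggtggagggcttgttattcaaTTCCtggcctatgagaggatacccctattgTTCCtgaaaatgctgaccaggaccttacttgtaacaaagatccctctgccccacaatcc
Eng: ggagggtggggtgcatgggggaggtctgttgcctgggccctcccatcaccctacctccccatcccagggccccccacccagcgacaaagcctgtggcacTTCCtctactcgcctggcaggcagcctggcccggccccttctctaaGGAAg
Kdr: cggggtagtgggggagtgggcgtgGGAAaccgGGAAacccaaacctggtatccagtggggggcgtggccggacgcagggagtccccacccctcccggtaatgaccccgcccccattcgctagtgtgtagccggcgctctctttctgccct
Cd34: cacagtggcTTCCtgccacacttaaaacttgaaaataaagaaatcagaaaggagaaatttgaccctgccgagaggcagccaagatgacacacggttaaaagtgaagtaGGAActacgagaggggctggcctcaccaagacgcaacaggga
The windows lie at chr4:94739139-94739288, plus strand for Tek, chr2:32646445-32646594, plus strand for Eng, chr5:75978456-75978605, minus strand for Kdr and chr1:194938671-194938820, plus strand for Cd34. The Eng and Cd34 windows end just before the annotated gene, which starts at 32646595 and 194938821. Those of Tek and Kdr lie inside it (94739086 to 94874976 and 75932827 to 75979072), so their listed start is not the outermost. Each of the 4 held 2 copies, as did the median of 32851 mouse promoters in the same window, of which 80.8% held at least 1. The called and the uncalled pair therefore did not differ in this count, and a match describes letters and not binding. The RefSeq table also held Tie1 and Emcn, with 3 copies each, and 6 of the 10 members were matched in all. Pecam1, Cdh5, Vwf and Esam were not matched.

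The next question was whether the microbiota of loperamide-treated donors left a different endothelial profile than that of control donors. None of the 11 probes differed between C/+Lop and C/-Lop muscle (limma), where 0% of all kept probes passed the test. No member had an unadjusted p under 0.05, and the methods' t-test gave 0 as well, beside 608 (4.31%) of all kept probes at an unadjusted p under 0.05. The median fold change of the members was -0.04 on the log2 scale, beside 0.00 over all kept probes. Vwf, with the most negative difference, read 8.55, 8.10, 7.82 and 8.23 on the C/+Lop arrays, against 8.45, 8.20, 8.36 and 8.35 on the C/-Lop arrays. The C/+Lop arrays fell on both sides of the C/-Lop arrays, and the difference was -0.17 (95% interval -0.65 to 0.32, adjusted p = 1, limma). Pecam1 by ILMN_2700982 read 8.14 on C/+Lop replicate 1 and 7.27 to 7.48 on the other C/+Lop arrays, against 7.45 to 7.62 on the C/-Lop arrays. Cdh5 was above background on C/+Lop replicate 1, at 5.50, and on no other array of either group, so no fold is given. For the members above background on an array of both groups the 95% intervals reached from -0.65 to 0.50, so differences of up to these sizes could be missed with 4 arrays in each group.

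Colonized mice were then set against GF mice. In C/-Lop against GF none of the 11 probes was called (limma), where 2.7% of all kept probes were, and no member had an unadjusted p under 0.05, where 17.8% of all kept probes did. Vwf read 8.45, 8.20, 8.36 and 8.35 on the C/-Lop arrays, against 7.96, 7.40, 8.59 and 7.92 on the GF arrays, a difference of 0.37 (95% interval -0.11 to 0.86, adjusted p = 0.427, limma). Cd34 read 6.45, 6.57, 6.70 and 6.59 on the C/-Lop arrays, against 6.79, 6.89, 7.17 and 6.58 on the GF arrays. GF replicate 4 was within the C/-Lop range, and the difference was -0.28 (95% interval -0.72 to 0.16, adjusted p = 0.517, limma). The median over the 11 probes was 0.11, and -0.0687 with the epithelial mean as a covariate.

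In C/+Lop against GF none of the 11 was called either, where 7.09% of all kept probes were, and 1 member had an unadjusted p under 0.05, by limma and by the methods' t-test, beside 24.4% of all kept probes. That was the Pecam1 probe ILMN_3147074, which read 6.41, 6.48, 6.21 and 6.11 on the C/+Lop arrays, against 6.53, 6.52, 6.84 and 6.61 on the GF arrays. All C/+Lop arrays were below all GF arrays, a pattern found for 8.67% of all kept probes, and the difference was -0.32 (SE 0.15, adjusted p = 0.193, limma). Its other probe, ILMN_2700982, gave 0.29 (SE 0.22, adjusted p = 0.45) in the same comparison. The 2 Pecam1 probes thus had opposite signs, and neither passed the test. The median over the 11 probes was 0.06, but its sign was not stable. It was -0.24 with the epithelial mean as a covariate, where 0 of the 11 were above 0, -0.0211 with median scaling, -0.025 without GF replicate 2 and -0.0719 over the 10 probes tested without GF replicate 2 and SPF replicates 2 and 4.

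Against SPF mice the colonized groups had lower values for most members. These comparisons share the SPF arrays with each other and with SPF against GF, so they are not independent of it. In C/+Lop muscle 4 of the 11 probes were lower than in SPF muscle and none was higher, where 22% of all kept probes passed the test and 10.6% passed it as lower. The median fold change was -0.58, beside 0.01 over all kept probes. The second Pecam1 probe, ILMN_3147074, read 6.41, 6.48, 6.21 and 6.11 in C/+Lop, against 6.91, 7.39, 6.77 and 6.84 in SPF. No C/+Lop array reached an SPF array, the difference was -0.67 (SE 0.15, adjusted p = 0.00627, limma), and the call held in all 16 fits that left out 1 array.

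Tek read 7.48, 7.34, 7.26 and 7.25 on the C/+Lop arrays, against 7.65, 8.72, 7.75 and 8.26 on the SPF arrays, again without overlap, as in 11% of all kept probes on the lower side. Its difference was -0.76 (SE 0.22, adjusted p = 0.025, limma). Cdh5 read 5.50, 4.88, 4.72 and 4.88 in C/+Lop, against 5.59, 5.92, 5.47 and 5.52 in SPF, and only C/+Lop replicate 1 reached the SPF range. That was also the only C/+Lop array on which Cdh5 was above background, so its fold is uncertain. Cdh5 had passed the filter only through its SPF arrays, so its call is not free of that choice. Its difference was -0.63 (SE 0.18, adjusted p = 0.0221, limma). Eng read 7.31, 7.02, 6.88 and 6.86 in C/+Lop, against 7.24, 7.96, 7.36 and 7.82 in SPF, with a difference of -0.58 (SE 0.18, adjusted p = 0.0341, limma). Esam (-0.43), Tie1 (-0.55), Vwf (-0.59) and Pecam1 by ILMN_2700982 (-0.60) had adjusted p-values between 0.0629 and 0.0776, and Emcn (-0.22), Cd34 (-0.26) and Kdr (0.02, of the other sign under cyclic loess) lay further from the threshold. The Tek and Eng calls each ended without SPF replicate 2 or 4 or without C/+Lop replicate 2, 3 or 4, and that of Cdh5 without SPF replicate 2 or the same 3 C/+Lop arrays.

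In C/-Lop muscle 2 of the 11 probes were lower than in SPF and none was higher, where 16.8% of all kept probes passed the test and 8.57% passed it as lower. The median was -0.45, beside 0.02 over all kept probes. Cdh5 read 4.67, 4.52, 4.87 and 4.72 on the C/-Lop arrays, none of them above background, against 5.59, 5.92, 5.47 and 5.52 on the SPF arrays. Set against the lowest signal above background on each C/-Lop array, the SPF mean of Cdh5 was 1.4-fold higher, a bound on means given without an interval. The test on the log2 values was passed (adjusted p = 0.00481, limma), and the call held in all 16 fits that left out 1 array. Cdh5 had passed the filter only through its SPF arrays, so this call is not free of that choice. The Pecam1 probe ILMN_3147074 read 6.47, 6.70, 6.50 and 6.14 on the C/-Lop arrays, against 6.91, 7.39, 6.77 and 6.84 on the SPF arrays, without overlap. Its difference was -0.52 (SE 0.15, adjusted p = 0.0247, limma), and the call ended without SPF replicate 2 or C/-Lop replicate 4. Tek (-0.65, adjusted p = 0.0531) and Pecam1 by ILMN_2700982 (-0.63, adjusted p = 0.0589) also did not overlap between the groups but did not pass the test (limma), which made 4 probes without overlap on the lower side, where 10.8% of all kept probes had that pattern.

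Eng (-0.47), Esam (-0.45), Vwf (-0.42), Tie1 (-0.39), Cd34 (-0.29) and Emcn (-0.22) were uncalled in C/-Lop against SPF, with adjusted p-values between 0.0708 and 0.364, and Kdr (0.06) had an adjusted p of 0.752 (limma). Without SPF replicates 2 and 4 the call of Cdh5 remained in C/-Lop against SPF and that of the Pecam1 probe ILMN_3147074 in C/+Lop against SPF, 1 probe in each. Over the members the medians were then -0.28 in C/+Lop and -0.19 in C/-Lop. SPF replicates 2 and 4 had the highest endothelial means of the SPF arrays, so leaving them out was bound to narrow the gap to SPF. The smooth muscle list was lower in the colonized groups on the same arrays, 10.54 to 10.59 in C/+Lop and 10.41 to 10.75 in C/-Lop, against 10.95 to 11.72 in SPF. The epithelial list ran from 11.46 to 11.70 in C/+Lop and from 11.60 to 11.66 in C/-Lop, against 11.17 to 11.70 in SPF, and the part of either list in the endothelial values was not tested.

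The SPF mean was the highest of the 4 group means for 10 of the 11 probes, all but Kdr. For the first Pecam1 probe the means were 7.55 ± 0.41 in C/+Lop, 7.51 ± 0.08 in C/-Lop, 8.15 ± 0.38 in SPF and 7.25 ± 0.40 in GF (SD, n = 4 each). The C/+Lop, C/-Lop and GF means did not differ beyond their spread. Cd34 was nearly level between SPF (6.87 ± 0.56) and GF (6.86 ± 0.24), with C/+Lop at 6.62 ± 0.17 and C/-Lop at 6.58 ± 0.10, and no pair of its groups passed the test. The C/-Lop arrays were tightly grouped for several members, with SDs of 0.08 to 0.12 for Pecam1 (ILMN_2700982), Eng, Cd34, Vwf and Tek, against 0.35 to 0.56 for the same probes on the SPF arrays.

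Across the 16 arrays the members mostly moved together. Of 45 pairs of members 39 had a positive Pearson correlation, with a median of 0.71, and after subtraction of the group means 38 did, with a median of 0.60. Against the mean of the other members, Eng (0.95), Tek (0.94), Esam (0.93) and Pecam1 (0.92) had the highest correlations, Cd34 stood at 0.41 and Kdr at -0.08. All these points share arrays, and so the same tissue makeup and normalization. Of all other genes, those most like the mean standardized member value were Selenon (selenoprotein N, r = 0.97), Mmrn2 (an extracellular protein of the endothelium, 0.97), Sparc (a secreted matrix protein, 0.96), Plpp3 (a lipid phosphatase, 0.96) and Crtap (a protein of collagen modification, 0.96), over 16 arrays. Spearman's rho for these 5 was 0.75 to 0.89, and without SPF replicates 2 and 4, the arrays farthest from the median, r was 0.89 to 0.92. After subtraction of the group means, the 5 most alike were Csdc2, Selenon, Gdf10, Dennd5a and B9d1, with r between 0.95 and 0.98 and rho between 0.91 and 0.97. Selenon was in both groups of 5.

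Other vascular genes were read from lists that follow the roles of the members, and their counts in SPF against GF stand beside 9.91% of all kept probes called as higher. Of 7 measured ligands of member receptors, of 12 listed, 2 were higher in SPF than in GF and none was lower, with a median of 0.19. Tgfb3 (0.99, SE 0.18, adjusted p = 0.00316) and Tgfb1 (0.67, SE 0.17, adjusted p = 0.0145), whose TGF-beta products bind complexes that hold endoglin, passed the test (limma). The VEGF receptor ligands Vegfc (0.33) and Vegfb (0.19) did not. Of 8 measured genes for receptors and a phosphatase that work beside the members, 5 rose, with a median of 0.45. Flt1, the other VEGF-A receptor, averaged 9.61 ± 0.30 in SPF and 8.79 ± 0.31 in GF (SD, n = 4 each). The VEGF co-receptor Nrp1 averaged 9.84 ± 0.34 in SPF and 9.01 ± 0.36 in GF. Their differences were 0.83 each, and Nrp2 (0.72) and Tgfbr2 (0.50, but 0.13 and uncalled by its other probe) were also higher. The Nrp2 groups overlapped, and it was above background on 4 SPF arrays and only 1 GF array, so its fold is uncertain.

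Of 11 measured junction and adhesion partners, 1 was higher and none was lower in SPF, a share near that of all kept probes, with a median of 0.25. That was Icam1, a receptor for leukocyte adhesion, at 7.78 ± 0.30 in SPF and 7.15 ± 0.16 in GF (SD, n = 4 each). Jam2 (0.66), Vcam1 (0.61) and the gap junction gene Gja4 (0.44) did not pass. In the list of VWF storage and blood clotting, 1 of 7 measured genes was lower and none was higher, with a median of -0.03. The lower gene was Gp1bb, a subunit of the platelet receptor for VWF (-0.79), which was above background on 1 SPF and 3 GF arrays. Procr (-0.25), Adamts13, the protease that cleaves VWF (-0.25), and Rab27a (0.20) did not pass.

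Of 9 measured endothelial transcription factors, 3 rose in SPF, with a median of 0.48. Ets1, an ETS family factor, averaged 9.09 ± 0.43 in SPF and 8.22 ± 0.26 in GF (SD, n = 4 each), and Sox18 (0.67) and Sox7 (0.48), SOX factors of vessel formation, also passed the test, while Sox17 (0.57) did not. Of 25 measured further endothelial genes, 9 were called as higher and none as lower, with 20 above 0 and a median of 0.47. Among those below 0, all uncalled, were Gpihbp1 (-0.39) and Efnb2 (-0.32). The 4 with the smallest p in this comparison were Ly6c1, a surface protein of microvascular and lymphoid cells (10.23 ± 0.53 in SPF and 9.20 ± 0.25 in GF, SD, n = 4 each), the sialomucin Podxl (0.63), the lectin-like receptor Cd93 (0.47) and the adhesion receptor Adgrl4 (0.68). Of 6 measured lymphatic genes 1 rose, Pdpn (0.71), which fibroblastic cells also carry, and Prox1 (0.22), Reln (0.43) and Ccl21a (0.27) did not pass. Of 8 pericyte genes, which mark the mural cells of capillaries, 4 rose, with a median of 0.53: Pdgfrb (0.81), Notch3 (0.87), Cspg4 (0.51) and Rgs5 (0.59).

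**Figure D4:**
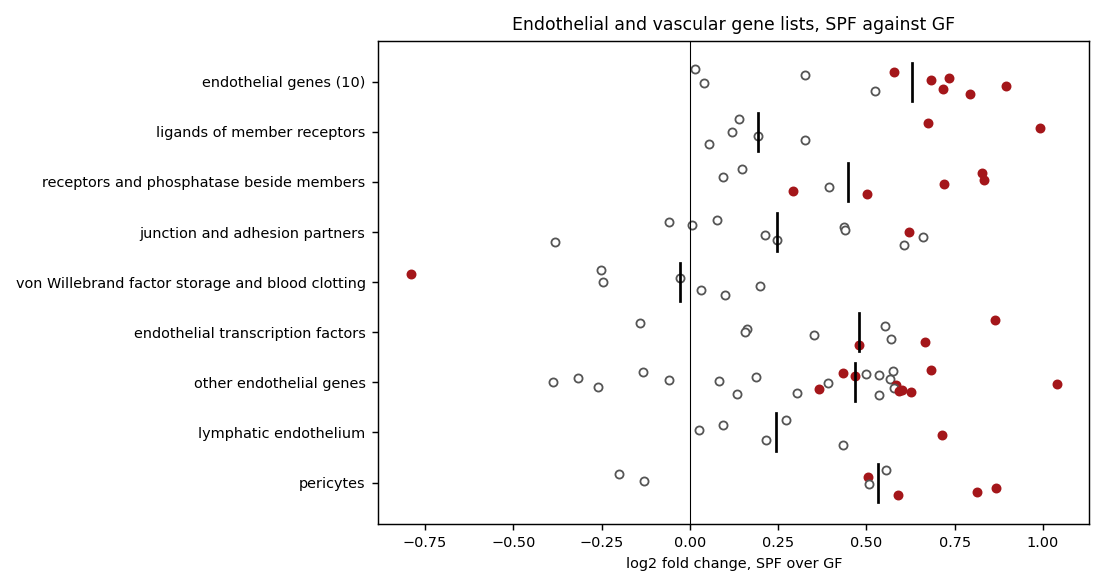
Log2 fold change, SPF over GF, of each gene in 9 lists (x axis), with filled red points for an adjusted p under 0.05, open points for the rest and a line at each list's median. The 10 endothelial genes (1 probe each) have 6 red points between 0.58 and 0.89, and the list of VWF storage and clotting has its only red point, Gp1bb, at -0.79.

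In C/+Lop against C/-Lop none of the genes of these 8 lists was called, and no list median went beyond -0.09 or 0.08. Against GF 2 genes of the 8 lists were called in the colonized groups, both as higher. Ly6c1 averaged 10.30 ± 0.12 in C/+Lop and 10.36 ± 0.25 in C/-Lop, against 9.20 ± 0.25 in GF (SD, n = 4 each), and passed the test in C/+Lop against GF (1.11, SE 0.21, adjusted p = 0.00732) and in C/-Lop against GF (1.16, SE 0.21, adjusted p = 0.0109, limma). Neither colonized group passed the test against SPF for Ly6c1 (0.07 in C/+Lop and 0.13 in C/-Lop). Vcam1, an adhesion receptor for leukocytes, averaged 8.78 ± 0.28 in C/-Lop and 7.91 ± 0.29 in GF (SD, n = 4 each), with a difference of 0.87 (SE 0.22, adjusted p = 0.0434, limma). These calls made 1 of 25 further endothelial genes in each colonized group and 1 of 11 junction and adhesion partners in C/-Lop, with 0 in every other list. Of all kept probes, 7.09% were called in C/+Lop against GF and 2.7% in C/-Lop against GF, in either direction. A single gene is too few to set a list apart from these shares. The mean of the leukocyte and macrophage list (4 measured genes of 8 listed) was also higher in the colonized groups than in GF. It ran from 8.92 to 9.06 in C/+Lop and from 8.89 to 9.20 in C/-Lop, against 7.91 to 8.51 in GF. The part of such cells in the Ly6c1 and Vcam1 values was not tested.

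In C/+Lop against SPF, where 10.6% of all kept probes were called as lower, the lower genes were 5 of the 8 receptors and phosphatase, 3 of the 7 ligands, 3 of the 8 pericyte genes, 2 of the 6 lymphatic genes, 2 of the 11 junction and adhesion partners, 4 of the 25 further endothelial genes, 0 of the 9 transcription factors and 0 of the 7 genes of VWF storage and clotting. In C/-Lop against SPF, where 8.57% were called as lower, these counts were 4, 1, 5, 1, 0, 3, 1 and 0 in the same order. No gene of the 8 lists was higher in either comparison. The lists overlap in cell type with smooth muscle and connective tissue (Pdgfrb and Notch3 in particular are found in smooth muscle), and over the 16 arrays the mean standardized value of the members had a Pearson correlation of 0.91 with the smooth muscle list, 0.97 with the fibroblast and matrix list and -0.86 with the epithelial list.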

How the data were processed

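Total RNA of the smooth muscle of the proximal colon was biotin labelled and hybridized to Illumina mouse BeadChips. The authors deposited, for 25697 probes on 16 arrays, the non-normalized mean bead intensity, the bead standard error (a signal on the intensity scale), the bead number and a detection p-value. A deposited table of log2 values for 16029 probes was used as an alternative. Per the submitters' processing notes it was made with limma, and no source used here gives its version or settings. The methods of the paper give no account of these arrays. Detection p was under 0.05 for 12364 to 13942 probes on each array. The number of arrays limits the precision.

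Intensities were corrected with limma 3.58.1 (R 4.3.3, neqc: normexp from detection p-values, offset 16, quantile normalization, log2). The result differed from the deposited log2 values by at most 0.0251. Probes with a detection p under 0.05 on at least 4 arrays were kept (14102). A single fit with a mean for each group (12 residual degrees of freedom), eBayes and Benjamini-Hochberg adjustment gave the tests, at a threshold of 0.05. The fit was tested on simulated data first. Probes were named from the platform table, which gave 1 gene for 15096 probes, several for 0, and did not list 10601. A level not above background on any array of a group was set at the lowest signal above background on each array, or the probe's own where higher, to give a fold as a bound.

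All members were named, and from each other vascular list the 4 genes with the smallest p in SPF against GF (by the probe with the highest mean), besides the 5 genes closest to the members across arrays. Members and lists were chosen with earlier results of these data known. Alternatives covered the background correction, normalization, offset, filter, samples in the fit, test, weights, covariates, replicate block and arrays left out.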

Additional observations from a re-analysis of the deposited data

Results flagged for a closer look

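Tek on GF replicate 2 had a log2 value of 6.71, against 7.51 to 7.65 on the other GF arrays. The gap to the nearest array was 0.850 of the group's range, above Dixon's 95% critical value for 4 samples. It was the only flag in 44 groups of 4 values (11 probes in 4 groups), and chance flags about 1 in 20 such groups. The same array was the lowest GF array for 9 of the 11 member probes, and without it the Tek difference between SPF and GF was 0.49, which did not pass the test.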

How the results depend on the processing

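Counts of called endothelial probes in SPF against GF (6 as reported) were 0 with only the SPF and GF arrays in the fit, 0 with the methods' t-test (5 unadjusted), 3 with array weights, 0 with the epithelial covariate, 0 without SPF replicates 2 and 4 and 0 without GF replicate 2 as well, a choice made after seeing the data. In C/-Lop against SPF (2 as reported) they were 4 without background correction, 7 with median scaling and 4 with an offset of 50. They were 1 with the t-test, with the epithelial covariate and in both fits without SPF replicates 2 and 4. With detection on at least 8 arrays the count was also 1, over 9 probes, since that filter dropped the called probe Cdh5 and Kdr. In C/+Lop against SPF (4 as reported) they were 8 with median scaling, 0 with the t-test, 1 without SPF replicates 2 and 4 and 2 without GF replicate 2 as well. Leaving out 1 array at a time gave 3 to 7, 1 to 6 and 1 to 8 calls in these 3 comparisons and 0 in the others. Median scaling moved the median of all probes to -0.10 in C/-Lop against GF, -0.14 in C/-Lop against SPF and -0.13 in C/+Lop against SPF. Among the member differences given in the text, those whose sign turned were uncalled, and single genes of the other lists were not followed under the alternatives. Sex was inferred from Xist, since the labels give none for single arrays: it read 6.64 to 7.01 on 2 C/+Lop, 2 C/-Lop, 1 SPF and 0 GF arrays and 4.54 to 4.99 on the others. In SPF against GF, Cd34 was -0.10 with array weights, -0.0716 with sex as a covariate, -0.46 with the epithelial covariate, -0.45 without SPF replicates 2 and 4 and -0.44 without GF replicate 2 as well (-0.20 to 0.19 with 1 array left out), and Emcn was -0.15 with the epithelial covariate and -0.072 without the 3 arrays. In C/+Lop against GF, Pecam1 (ILMN_2700982) was -0.14 with the epithelial covariate. In C/-Lop against SPF, Kdr was -0.0465 with the replicate block (-0.0043 to 0.12 with 1 array left out), Emcn 0.0169 with the epithelial covariate, 0.0483 without SPF replicates 2 and 4 and 0.0485 without GF replicate 2 as well, and Cd34 0.17 in both of these fits. In C/+Lop against SPF, Kdr was -0.0306 with cyclic loess, -0.0829 with the replicate block and -0.0022 with sex as a covariate (-0.0404 to 0.11 with 1 array left out), Cd34 was 0.0027 with array weights and 0.21 in both fits without SPF replicates 2 and 4, and Emcn 0.0471 and 0.0472 in these. Replicate numbers did not pair the arrays (correlations of same-numbered deviations from -0.55 to 0.36), and the replicate block gave 6, 2 and 4 calls in the comparisons with calls, with Tie1 called and Eng not in C/+Lop against SPF. Probes called among all 14102 in SPF against GF (2813) were 696 in the fit of these groups alone, 125 with the t-test, 1773 with array weights, 150 with the epithelial covariate, 698 and 538 in the fits without SPF replicates 2 and 4, and 1393 to 3485 with 1 array left out. For C/-Lop against SPF (2373) they were 1465, 809, 1289 with the covariate, 660 and 1008, and 1069 to 3025. Without background correction, with median scaling and with an offset of 50 they were 2559, 3132 and 2557. For C/+Lop against SPF (3096) they were 1962, 976, 1017 and 1438, and 1640 to 3393, with 3114 under median scaling. For C/-Lop against GF (381) they were 102 with the t-test, 1194 with weights, 237 with the block, 156 with sex, 712 and 904, and 96 to 483, and for C/+Lop against GF (1000) 385, 1971, 573 with sex, 1618 and 1812, and 453 to 1161. Except where a smaller sample is the setting, and for Cdh5 under the stricter filter, the cause was not tested. A chip block was not run because the tables used here name no chip. Kdr fell under the filter in 4 of the 16 fits with 1 array left out and in those without SPF replicates 2 and 4.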
